A study of Rattus norvegicus with 6 samples.

Results

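The genes described here encode integrins, laminins, the proteins that tie laminin into the basement membrane, and the adaptors and kinases that gather at integrin tails. They were chosen by symbol from the deposited table of gene expression: integrin alpha and beta subunits with the genes whose symbols start with Itgb, laminin chains, Nid1, Nid2, Hspg2, Agrn and Dag1, and a fixed set of talin, kindlin, ILK complex, focal adhesion kinase, paxillin, zyxin and tensin genes. The table held 49 such symbols, of which 47 had 10 or more counts summed over the 6 libraries and became members, among 13728 genes held in all. Fermt3 with a sum of 8 counts and Itgad with 9 lay just outside that limit, and Itga10 and Itgb7 with 15 each lay just inside it. Itga1, Itga6, Itga8, Itgam, Itgb5, Lama3, Lama5, Lamb1, all laminin gamma chains, Vcl, Tns1 and Tns2 were not analysed here, so every share of a family given below is a share among the genes held.

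The study set rat endometrial epithelial organoids (rEEOs) beside rat bone marrow mesenchymal stem cells (rBMSCs), with 3 bulk RNA-seq libraries of each. The rEEOs were grown from uterine glandular fragments of 5-week-old female SD rats, inside Matrigel, a basement membrane extract, with an expansion medium of growth factors and of inhibitors of the TGF-beta receptor and of ROCK, a kinase of actin contraction. The rBMSCs were purchased RFP-labeled rat cells grown in dishes with serum, with age, sex and strain not given in the sources used here. Cell type, dimension of the culture, matrix, medium with its inhibitors, and the RFP label therefore differed together and cannot be told apart, and nothing in the sources says that replicates came from separate animals or cultures, so p-values measure the spread between these libraries, which may be technical.

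Integrins are receptors made of 1 alpha and 1 beta subunit, and the pairing sets the ligand. Laminins, trimers of an alpha, a beta and a gamma chain, form the sheet of the basement membrane on which epithelia rest, and nidogens, perlecan (Hspg2) and agrin (Agrn) link that sheet to collagen IV and to the cell. Inside the cell, talins and kindlins bind beta tails and activate the receptor, the ILK, PINCH and parvin complex joins it to actin, and focal adhesion kinase and its relatives signal from it. Epithelial cells are known for the alpha6beta4 integrin of the hemidesmosome and for laminin-332, which contains the Lamb3 chain, whereas connective tissue cells attach to collagen and fibronectin through beta1 integrins.

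Values are given in TPM, a measure of transcript abundance that corrects for transcript length and depth and so allows genes to be compared with each other. Fold changes are from edgeR's quasi-likelihood test on counts, as log2 of rEEOs over rBMSCs ± standard error, and a gene is called when the log2 fold change exceeds 2 in size with an adjusted p below 0.05. Totals over the genes held lay between 10457958 and 15421501 counts per library. Libraries of rBMSCs correlated at 0.989 to 0.993 on log2 CPM across genes, which are not independent replicates. In rEEOs, replicates 2 and 3 correlated at 0.971, and replicate 1 at 0.919 and 0.940 with them, so replicate 1 stood apart. The labels were checked against marker genes: 11 epithelial genes such as Epcam and Krt8 summed to 5029 to 5661 TPM in rEEOs and 2.93 to 3.57 TPM in rBMSCs, and 11 mesenchymal genes summed to between 172 and 298 TPM and between 41235 and 43530 TPM respectively. All 10 epithelial genes tested were called higher in rEEOs, where 16.3% of all genes tested were. Of 10 mesenchymal genes tested, 9 were called lower, where 13.3% of all genes were, and 1 did not pass by adjusted p. In such bulk samples, fewer cells of a type and less RNA per cell cannot be told apart.

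Of the 47 members, 43 had enough counts to be tested, 13 were called higher in rEEOs and 17 lower. Over all 10607 genes tested, 16.3% were called higher, 13.3% lower and 29.7% in either direction, against 30 of 43 members. By adjusted p alone 36 members passed, 14 higher and 22 lower, where 63.4% of all genes did. The CPM of the 2 cell types, counts scaled to library size times its TMM factor, did not overlap in 38 members, where 72.8% of all genes did not. The median log2 fold change was -1.25 over the members, also with genes read in 1 cell type at their bound, and 0.08 over all genes tested. The members took 1.53% to 1.66% of the counts of rBMSCs libraries and 0.691% to 0.992% of those of rEEOs libraries.

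**Figure D1:**
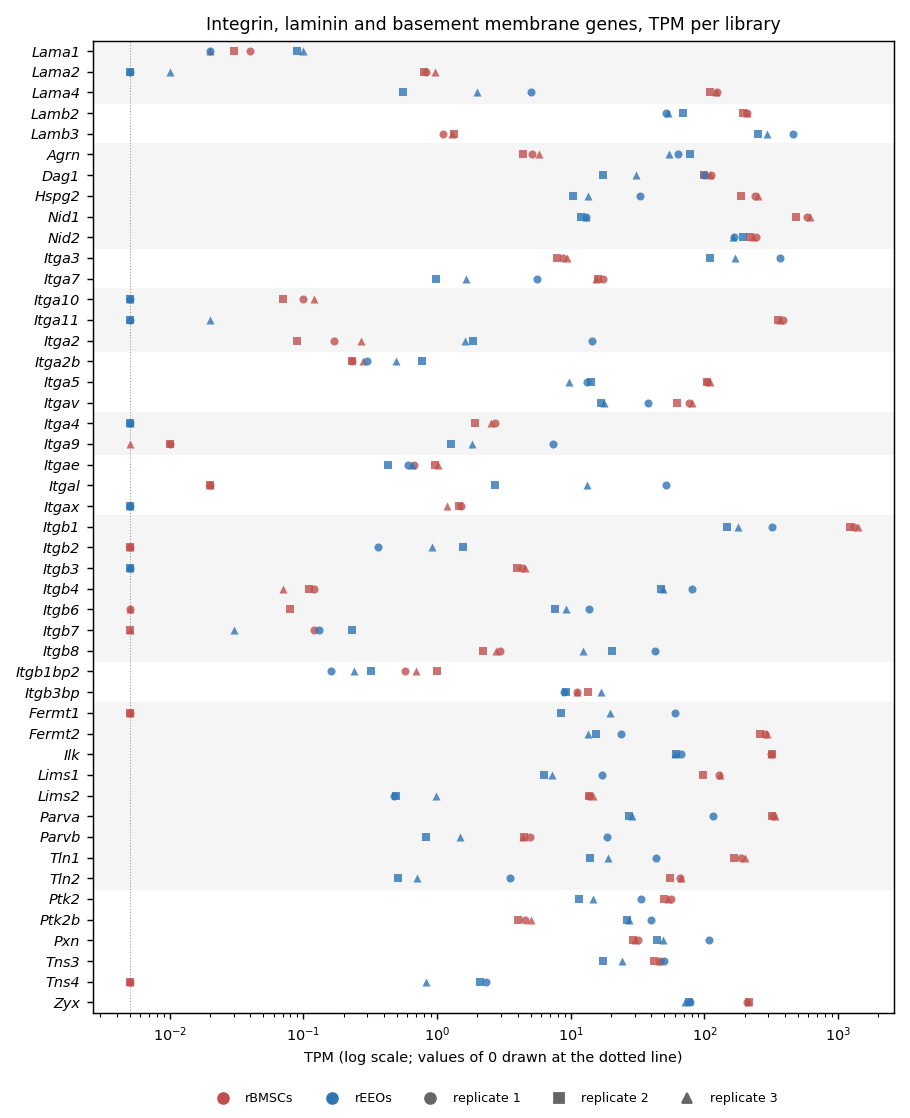
TPM of each of the 47 members on a log axis, 1 row per gene and 1 point per library, red for rBMSCs and blue for rEEOs, with the symbol giving the replicate and shading separating roles. Red points lie close together in most rows, while the rEEOs replicate 1 circle often lies to the right of the other rEEOs points.

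The start regions of 4 members are shown because they are, among the members, the most abundant matrix gene and alpha subunit called in each direction: Lamb3 and Itga3 higher in rEEOs, Nid1 and Itga11 lower. Each runs 5′ to 3′ from 250 bases before to 50 bases after the annotated start in RefSeq on the GRCr8 assembly, with capitals marking GGGCGG or its reverse complement CCGCCC, the letters of a GC box. The Lamb3 window lies at chr13:107362303-107362602 on the plus strand, that of Itga3 at chr10:80518852-80519151 on the minus strand, that of Nid1 at chr17:93069036-93069335 on the plus strand and that of Itga11 at chr8:72041182-72041481 on the plus strand.
Lamb3: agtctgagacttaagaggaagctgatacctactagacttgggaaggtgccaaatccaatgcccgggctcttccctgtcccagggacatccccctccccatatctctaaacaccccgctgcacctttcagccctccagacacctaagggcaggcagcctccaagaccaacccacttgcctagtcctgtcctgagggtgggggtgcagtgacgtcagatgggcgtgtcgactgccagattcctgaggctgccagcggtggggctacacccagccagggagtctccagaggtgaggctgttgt
Itga3: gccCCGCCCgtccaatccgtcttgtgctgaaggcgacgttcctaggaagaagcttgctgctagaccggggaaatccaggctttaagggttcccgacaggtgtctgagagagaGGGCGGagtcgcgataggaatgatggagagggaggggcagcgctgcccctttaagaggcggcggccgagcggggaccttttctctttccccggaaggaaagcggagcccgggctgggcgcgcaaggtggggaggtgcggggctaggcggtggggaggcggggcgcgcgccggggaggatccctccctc
Nid1: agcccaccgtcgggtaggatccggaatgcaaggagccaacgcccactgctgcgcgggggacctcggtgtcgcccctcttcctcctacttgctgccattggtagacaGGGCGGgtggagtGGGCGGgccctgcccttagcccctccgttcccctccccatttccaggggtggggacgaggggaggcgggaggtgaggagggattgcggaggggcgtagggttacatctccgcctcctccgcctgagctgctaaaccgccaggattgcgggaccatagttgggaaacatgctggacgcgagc
Itga11: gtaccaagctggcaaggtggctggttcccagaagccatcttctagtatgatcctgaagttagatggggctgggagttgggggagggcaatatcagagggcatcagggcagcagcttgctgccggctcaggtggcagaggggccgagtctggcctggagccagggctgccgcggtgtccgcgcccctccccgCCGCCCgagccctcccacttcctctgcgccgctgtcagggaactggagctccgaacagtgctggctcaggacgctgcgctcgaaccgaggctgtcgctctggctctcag

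The Lamb3 window holds no GC box letters and 6 CpG dinucleotides at 59.3% GC, whereas the windows of Itga3, Nid1 and Itga11 hold 2, 2 and 1 matches at 67.0%, 66.3% and 65.7% GC. RefSeq windows matched 34 of the 47 members by gene ID. GC box letters on either strand lay in the windows of 18 of these 34 members, 5 of 8 called higher and 8 of 14 called lower, where 63.9% of all tested genes with a window and 36.0% of all genes with a window held them. The AP-1 letters TGANTCA lay in 1 member window (Itgax) against 5.41% of tested genes, and the TEAD letters GGAATG in 9 against 12.1%. The ETS letters CCGGAAG lay in 4 member windows against 18.4% of tested genes. The TATA letters TATAAA lay in 3 member windows against 7.15% of tested genes. The CArG box lay in 2 (Itgb6 and Lama2) against 1.37%, and the grainyhead letters AACNNGTT in 1 (Lama1) against 3.51%. None of these matches is a binding measurement.

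The laminin beta chains held, Lamb2 and Lamb3, differed in opposite directions. Lamb3, the beta chain of laminin-332, was at 1.10, 1.34 and 1.29 TPM in rBMSCs replicates 1, 2 and 3 and at 455.66, 249.68 and 294.35 TPM in the rEEOs replicates. Every rEEOs library lay far above every rBMSCs library, and the log2 fold change was 8.25 ± 0.23 (adjusted p = 4.59e-06). Lamb2, the beta chain common in laminins of stroma, vessels and muscle, was at 207.96, 195.23 and 209.15 TPM in rBMSCs and 51.29, 69.50 and 53.00 TPM in rEEOs. It did not overlap between the groups, but the difference of -1.53 ± 0.26 (adjusted p = 0.00241) stayed within the fold threshold, so it was not called. Lamb3 made up 0.607% ± 0.0779 (SD, n = 3) of the summed TPM of Lamb2 and Lamb3 in rBMSCs and 84.3% ± 5.84 (SD, n = 3) in rEEOs. The 2-sided exact permutation test gave p = 0.1, the smallest that 3 against 3 libraries allow, for this share, and 0.109 after adjustment over 25 shares of integrin and laminin genes.

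Both laminin alpha chains tested were lower in rEEOs. Lama4, an alpha chain of mesenchymal and vascular laminins, was at 123.37, 109.42 and 122.65 TPM in rBMSCs and 5.05, 0.56 and 1.98 TPM in rEEOs, a log2 fold change of -5.44 ± 0.67 (adjusted p = 0.000627). The groups were far apart, although the rEEOs libraries differed among themselves by more than the rBMSCs libraries did. Lama2, the alpha chain of muscle laminin, was at 0.82, 0.80 and 0.96 TPM in rBMSCs and at 0, 0 and 0.01 TPM in rEEOs, where the single library above 0 had 1 count. Against 3 counts as a floor it was at least 25.2-fold lower in rEEOs. Lama1, the alpha chain of early embryonic laminin, stayed between 0.02 and 0.10 TPM in all 6 libraries and was not tested. Summed over these 3 genes, laminin alpha TPM was 110.25 to 124.23 in rBMSCs and 0.65 to 5.07 in rEEOs.

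The linkers of the basement membrane did not move as 1 block. Nid1, nidogen-1, which bridges laminin and collagen IV, was at 588.11, 485.53 and 612.30 TPM in rBMSCs and 13.01, 11.91 and 13.05 TPM in rEEOs, a log2 fold change of -5.21 ± 0.22 (adjusted p = 1.13e-05). Nid2, its close relative, was at 243.39, 219.99 and 229.19 TPM in rBMSCs and 165.06, 195.37 and 162.68 TPM in rEEOs. On the count scale Nid2 overlapped between the groups and its log2 fold change of -0.13 ± 0.22 had an adjusted p of 0.627. That difference turned positive with library size as the only scaling (0.24) and without rEEOs replicate 1 (0.07). Its lowest value over the alternatives was -0.41. In TPM the groups did not overlap, with every rEEOs library below every rBMSCs library. The ratio of Nid1 to Nid2 in TPM was therefore 2.42, 2.21 and 2.67 in rBMSCs and 0.0788, 0.0610 and 0.0802 in rEEOs, with no overlap.

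Hspg2, perlecan, was at 240.26, 187.23 and 252.62 TPM in rBMSCs and 32.78, 10.46 and 13.40 TPM in rEEOs, a log2 fold change of -3.44 ± 0.35 (adjusted p = 0.000276). Agrn, the other large heparan sulfate proteoglycan of basement membranes, went the opposite way, with 5.16, 4.37 and 5.82 TPM in rBMSCs and 63.89, 78.10 and 54.05 TPM in rEEOs. Its log2 fold change was 3.95 ± 0.27 (adjusted p = 5.35e-05). Dag1, dystroglycan, the laminin and agrin receptor outside the integrin family, was at 111.49, 99.22 and 110.93 TPM in rBMSCs and 99.51, 17.35 and 30.52 TPM in rEEOs. The TPM of rEEOs replicate 1 fell inside the rBMSCs range while the other replicates were far below it. In CPM the groups did not overlap, and the test over all 6 libraries gave -1.03 ± 0.48 (adjusted p = 0.104).

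**Figure D2:**
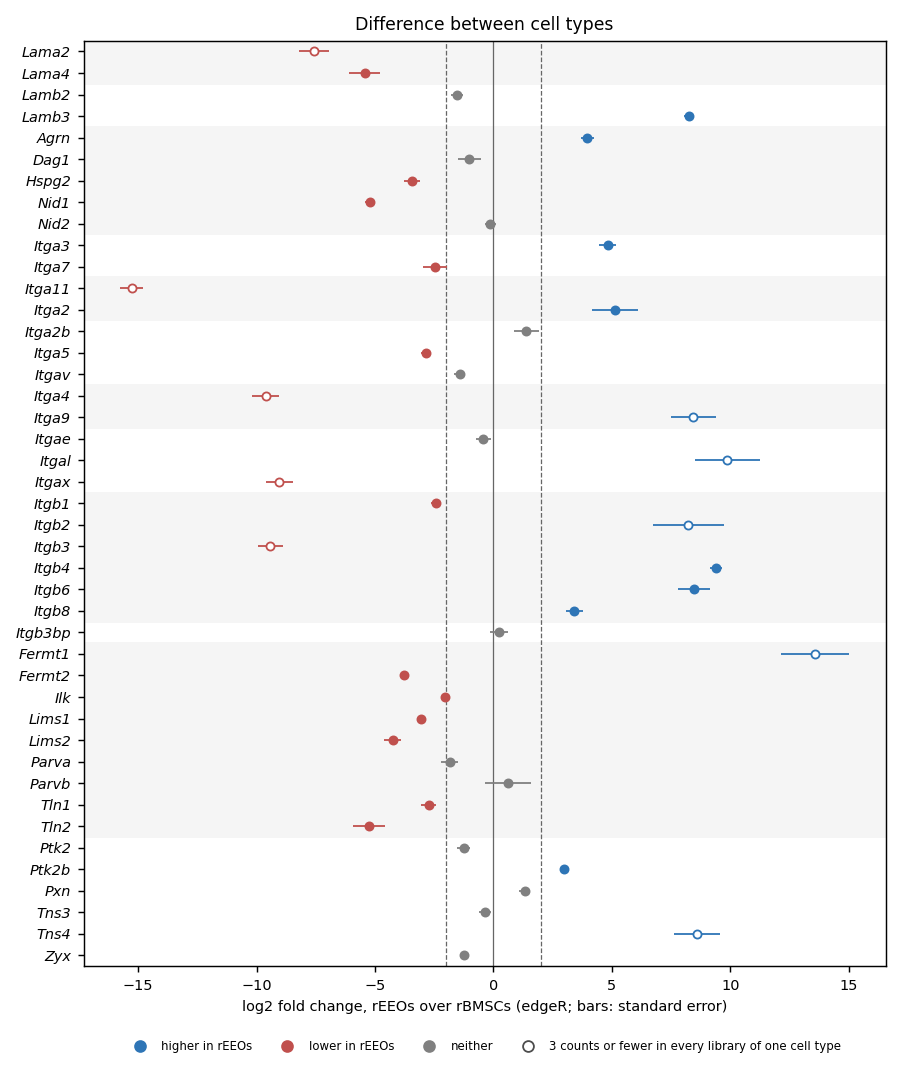
Log2 fold change of rEEOs over rBMSCs for the 43 members tested, in the order of the TPM plot, with bars for the standard error of edgeR's fit and dashed lines at -2 and 2. Blue points were called higher and red points lower, and open points mark genes with 3 counts or fewer in every library of 1 cell type, whose fitted value is no bound.

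Among the laminin-binding alpha subunits, Itga3, the partner of beta1 in a main epithelial laminin receptor, was at 8.73, 7.85 and 9.30 TPM in rBMSCs and 370.03, 110.61 and 170.10 TPM in rEEOs. Every rEEOs library lay well above every rBMSCs library, and the log2 fold change was 4.81 ± 0.34 (adjusted p = 6.42e-05). Itga7, the laminin receptor subunit of muscle, was at 17.27, 15.89 and 15.36 TPM in rBMSCs and 5.58, 0.98 and 1.64 TPM in rEEOs, a log2 fold change of -2.47 ± 0.50 (adjusted p = 0.00537). Itga3 took 1.49% ± 0.0805 (SD, n = 3) of the summed alpha subunit TPM in rBMSCs and 75.4% ± 2.62 (SD, n = 3) in rEEOs.

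Among the collagen-binding alpha subunits, Itga11, a fibroblast receptor for fibrillar collagen, was at 384.27, 352.61 and 367.49 TPM in rBMSCs and 0, 0 and 0.02 TPM in rEEOs. A single count was read over the 3 rEEOs libraries, so the gene was at least 5182-fold lower there against the floor of 3 counts. It was the most abundant of the alpha subunits held in rBMSCs, with 63.7% ± 1.00 (SD, n = 3) of the summed alpha TPM. Itga2, the collagen receptor subunit of epithelia and platelets, was at 0.17, 0.09 and 0.27 TPM in rBMSCs and 14.47, 1.85 and 1.63 TPM in rEEOs, and the log2 fold change was 5.12 ± 0.96 (adjusted p = 0.00392). The groups did not overlap, but rEEOs replicate 1 was far above the other replicates. Itga10, a cartilage collagen receptor subunit, had between 4 and 6 counts in each rBMSCs library and 0 in rEEOs and was not tested.

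The subunits that bind the RGD motif of fibronectin and vitronectin were lower or not called. Itga5, which forms the fibronectin receptor with beta1, was at 104.94, 104.55 and 109.69 TPM in rBMSCs and 13.27, 14.12 and 9.66 TPM in rEEOs, a log2 fold change of -2.85 ± 0.21 (adjusted p = 7.88e-05). Itgav, which pairs with several beta subunits, was at 77.05, 62.61 and 80.09 TPM in rBMSCs and 38.04, 16.84 and 17.67 TPM in rEEOs. All rEEOs libraries were below all rBMSCs libraries, yet the log2 fold change of -1.42 ± 0.23 (adjusted p = 0.00192) was within the fold threshold. Itga2b, the platelet subunit, was at 0.23 to 0.28 TPM in rBMSCs and 0.30 to 0.77 TPM in rEEOs, with an adjusted p of 0.053.

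Itga4 and Itga9, related subunits that bind VCAM-1, fibronectin or tenascin, went in opposite directions at low levels. Itga4 was at 2.73, 1.91 and 2.51 TPM in rBMSCs and had no counts in rEEOs, at least 27.9-fold lower. Itga9 was at 0.01, 0.01 and 0 TPM in rBMSCs and 7.40, 1.28 and 1.81 TPM in rEEOs, on their mean at least 87.6-fold higher against the floor. By limma on log2(TPM + 1), which shrinks differences at low levels, both fell within the fold threshold.

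Of the subunits known from leukocytes, Itgal, the alpha chain of LFA-1, was at 0.02 TPM in each rBMSCs library and at 51.33, 2.73 and 13.23 TPM in rEEOs. On the mean of the rEEOs libraries it was at least 338-fold higher. The 3 rEEOs libraries spanned 145 to 2743 counts of this gene. Itgb2, the obligate partner of Itgal, had no counts in rBMSCs and was at 0.36, 1.56 and 0.91 TPM in rEEOs, at least 12.2-fold higher, or 7.54-fold without rEEOs replicate 2. The order of the rEEOs libraries was reversed between them, and the ratio of Itgal to Itgb2 was 143, 1.75 and 14.5 in rEEOs replicates 1, 2 and 3. Of 9 haematopoietic marker genes held, the summed TPM was 5.11 to 7.15 in rBMSCs and 100 to 154 in rEEOs, with the highest sum in rEEOs replicate 2, where Itgal was lowest. Cd68 and Cd14 made up nearly all of that sum, at 31.78, 132.55 and 105.24 TPM and 67.27, 19.40 and 15.94 TPM in the rEEOs replicates, while Cd34, Csf1r, Adgre1, Laptm5 and Spi1 were at 0.48 TPM or less in all 6 libraries. The part of other cells in the Itgal and Itgb2 values was not tested.

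Itgax, the alpha chain of a complement receptor of myeloid cells, was at 1.51, 1.47 and 1.19 TPM in rBMSCs and had no counts in rEEOs, at least 18.7-fold lower, though it too fell within the fold threshold by limma on log2(TPM + 1). Itgae, which binds E-cadherin from lymphocytes, lay between 0.67 and 1.01 TPM in rBMSCs and 0.43 and 0.65 TPM in rEEOs, with an adjusted p of 0.277.

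Itgb1, the beta subunit shared by most matrix receptors, was the most abundant of the integrin genes held in rBMSCs, at 1319.74, 1228.29 and 1406.94 TPM, and was at 321.64, 147.57 and 177.07 TPM in rEEOs. The groups were well apart, at a difference of -2.42 ± 0.22 (adjusted p = 0.000167). Itgb4, the hemidesmosome subunit that pairs only with alpha6, was at 0.12, 0.11 and 0.07 TPM in rBMSCs and 80.67, 47.68 and 48.68 TPM in rEEOs, a log2 fold change of 9.40 ± 0.25 (adjusted p = 4.59e-06). Its partner was not analysed here. The ratio of Itgb1 to Itgb4 lay between 3.10 and 3.99 in the rEEOs libraries, so Itgb1 remained the more abundant of the pair in TPM.

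Itgb6 and Itgb8 pair with Itgav to bind latent TGF-beta. Itgb6, an epithelial subunit, was at 0, 0.08 and 0 TPM in rBMSCs and 13.60, 7.59 and 9.28 TPM in rEEOs, a log2 fold change of 8.47 ± 0.69 (adjusted p = 0.000107). All of its 4 rBMSCs counts were read in replicate 2, and without that library the fitted value was 12.01 against libraries at 0, which is no bound. Itgb8 was at 2.64 ± 0.397 TPM (SD, n = 3) in rBMSCs and 42.47, 20.24 and 12.37 TPM in rEEOs, a log2 fold change of 3.41 ± 0.36 (adjusted p = 0.000333). Neither overlapped between the groups, while their partner Itgav was lower in rEEOs by adjusted p. Itgb3, another RGD-type partner of Itgav, was at 4.33, 3.93 and 4.52 TPM in rBMSCs and had no counts in rEEOs, at least 24.3-fold lower. Itgb7 had at most 7 counts in a library and was not tested.

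Within the beta family, Itgb1 took 99.5% ± 0.0306 (SD, n = 3) of the summed TPM in rBMSCs and 69.0% ± 2.99 (SD, n = 3) in rEEOs, where Itgb4 took 19.5% ± 1.82, Itgb8 7.75% ± 2.40 and Itgb6 3.36% ± 0.387 (SD, n = 3). As for laminin, the exact permutation p of each of these shares was 0.1, the smallest possible. Of the 20 integrin subunits held, 18 were tested, 8 were called higher and 7 lower, where 16.3% and 13.3% of all genes tested were. The summed beta TPM was 1234.61 to 1414.28 in rBMSCs and 224.87 to 458.87 in rEEOs, and the summed alpha TPM was 548.27 to 597.70 and 149.61 to 501.03.

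**Figure D3:**
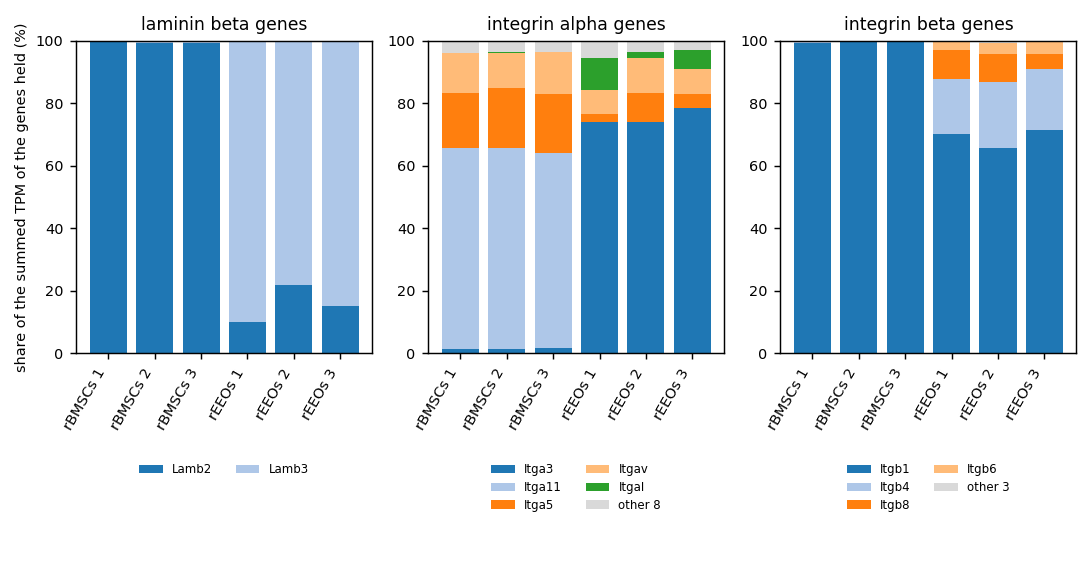
Share of the summed TPM of the laminin beta, integrin alpha and integrin beta genes held taken by each gene, in percent, 1 stacked bar per library; genes that never reach 3% are pooled in grey. Lamb2, Itga11 and Itgb1 lead in all 3 rBMSCs libraries, while Lamb3 and Itga3 lead in all 3 rEEOs libraries and Itgb1 keeps between 65.6% and 71.3% there.

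The kindlins differed in opposite directions. Fermt1, kindlin-1, the epithelial form, had no counts in rBMSCs and was at 59.90, 8.44 and 19.52 TPM in rEEOs, on their mean at least 492-fold higher against the floor. Fermt2, kindlin-2, the broadly expressed form, was at 282.84, 261.59 and 292.83 TPM in rBMSCs and 23.69, 15.34 and 13.34 TPM in rEEOs, a log2 fold change of -3.78 ± 0.17 (adjusted p = 1.24e-05). Among rEEOs libraries Fermt1 varied far more than Fermt2, so Fermt2 was at 0.395, 1.82 and 0.683 times the level of Fermt1 in replicates 1, 2 and 3.

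Both talins were lower in rEEOs. Tln1 was at 187.74, 167.48 and 199.33 TPM in rBMSCs and 43.10, 13.84 and 19.08 TPM in rEEOs, a log2 fold change of -2.74 ± 0.31 (adjusted p = 0.000458). Tln2, the form abundant in muscle and brain, was at 65.38, 55.11 and 66.57 TPM in rBMSCs and 3.48, 0.51 and 0.71 TPM in rEEOs, a log2 fold change of -5.23 ± 0.67 (adjusted p = 0.000768). Tln1 remained the higher of the pair in all 6 libraries.

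Of the ILK complex, Ilk, the pseudokinase at its centre, was at 312.05, 317.88 and 313.29 TPM in rBMSCs and 66.44, 61.31 and 60.34 TPM in rEEOs. Its libraries lay close together within each group, and the difference of -2.06 ± 0.16 (adjusted p = 8.05e-05) lay at the edge of the fold threshold: it was -1.93 without rEEOs replicate 1 and -1.69 with library size as the only scaling. Lims1, PINCH-1, was at 128.97, 97.56 and 131.36 TPM in rBMSCs and 17.22, 6.28 and 7.28 TPM in rEEOs, a log2 fold change of -3.06 ± 0.14 (adjusted p = 1.4e-05). Lims2, PINCH-2, was at 13.64, 13.60 and 14.68 TPM in rBMSCs and 0.48, 0.49 and 0.98 TPM in rEEOs, a log2 fold change of -4.25 ± 0.36 (adjusted p = 0.000121). Parva, alpha-parvin, was at 328.09, 319.88 and 335.99 TPM in rBMSCs and 116.18, 27.49 and 28.83 TPM in rEEOs. On counts its log2 fold change was -1.85 ± 0.36 (adjusted p = 0.00467), short of the fold threshold, and by limma on log2(TPM + 0.1) it was -2.86, past it. Parvb, beta-parvin, lay between 4.36 and 4.95 TPM in rBMSCs and was at 18.74, 0.83 and 1.48 TPM in rEEOs, on either side of the rBMSCs range, with an adjusted p of 0.60 and a difference of 0.61 over all libraries that was negative in 4 of the alternatives. Of the 9 activators and ILK complex genes, 6 were called lower and 1, Fermt1, higher, where 13.3% and 16.3% of all genes tested were.

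The kinases and adaptors of focal adhesions were mixed. Ptk2, focal adhesion kinase, was at 56.36, 49.64 and 53.67 TPM in rBMSCs and 33.66, 11.61 and 14.62 TPM in rEEOs, and the difference of -1.26 ± 0.27 (adjusted p = 0.00699) stayed within the fold threshold. Its relative Ptk2b, PYK2, was at 4.58, 4.05 and 5.06 TPM in rBMSCs and 40.10, 26.25 and 27.04 TPM in rEEOs, a log2 fold change of 2.99 ± 0.14 (adjusted p = 1.39e-05). The pair thus differed in opposite directions and neither gene overlapped between the groups. In rEEOs replicates 1, 2 and 3 the TPM of Ptk2b exceeded that of Ptk2, and in rBMSCs Ptk2 exceeded Ptk2b.

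Pxn, paxillin, was at 31.66, 29.26 and 30.47 TPM in rBMSCs and 109.00, 43.91 and 49.33 TPM in rEEOs, a log2 fold change of 1.32 ± 0.24 (adjusted p = 0.0032). Zyx, zyxin, a LIM protein of tensed actin fibres, was at 208.13, 216.10 and 212.27 TPM in rBMSCs and 77.39, 76.97 and 70.98 TPM in rEEOs, a log2 fold change of -1.25 ± 0.16 (adjusted p = 0.00071). Neither was called, since both stayed within the fold threshold. Of the tensins, which bind integrin tails, Tns4 had no counts in rBMSCs and lay between 0.83 and 2.31 TPM in rEEOs, at least 15.5-fold higher. Tns3 overlapped between the groups, at 41.76 to 46.28 TPM and 17.33 to 50.11 TPM, with an adjusted p of 0.26. Itgb3bp, a kinetochore protein that carries an integrin name, overlapped too (adjusted p = 0.602), and Itgb1bp2, a muscle chaperone-like protein, had at most 11 counts and was not tested.

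Spread among replicates was unequal. The standard deviation (SD) of log2(CPM + 1) over 3 libraries had a median of 0.0746 in rBMSCs and 0.440 in rEEOs over the 43 members tested, where all genes tested had 0.0877 and 0.340. It was larger in rEEOs for 36 of 43 members (83.7%), and for 88.8% of all genes. By CPM, replicate 1 was the lowest rEEOs library in 11 of 43 members (25.6%, all genes 41.0%). It was the highest in 24 of 43 members (55.8%, all genes 41.4%), and over 2-fold above both others in 9 (20.9%, all genes 10.3%). Parvb, Itga2, Itgal, Tln2, Itga9 and Fermt1 led that list in TPM.

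**Figure D4:**
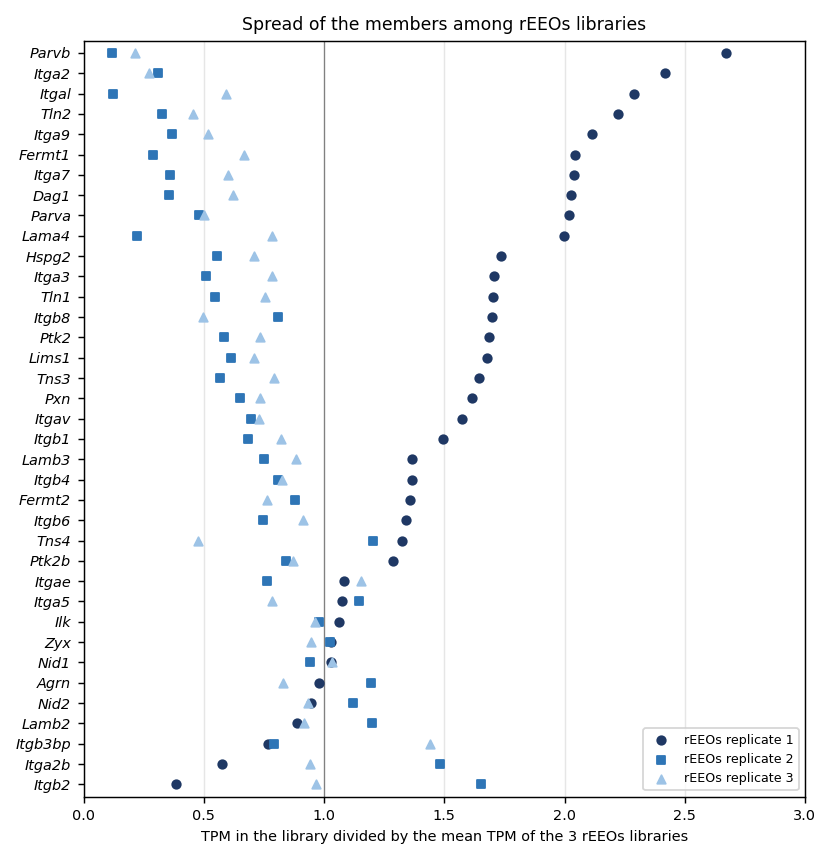
TPM of each rEEOs library divided by the mean of the 3 rEEOs libraries, for the 37 members whose mean CPM in rEEOs was 1 or more, ordered by the excess of replicate 1. Dark circles for replicate 1 lie right of the line at 1 for most genes, near it for Ilk, Zyx, Nid1, Agrn and Nid2, and left of it for Itga2b, Itgb2, Itgb3bp and Lamb2. The position depends on the scale. For Ilk, Zyx, Nid1, Agrn and Nid2 the CPM of replicate 1 was 0.66 to 0.78 times the mean of replicates 2 and 3. For Lamb3, Itgb6 and Lims1 that ratio was 1.68, 1.61 and 2.54 in TPM and 1.20, 1.01 and 1.10 in CPM.

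A set of 5 basal epithelial genes held summed to 216.67, 23.04 and 38.86 TPM in rEEOs replicates 1, 2 and 3 and to between 0.21 and 0.26 TPM in rBMSCs. Within it Krt5 was at 100.69, 0.08 and 0 TPM and Krt14 at 51.31, 0 and 0.17 TPM in the rEEOs replicates, and the 2 were at 0 in rBMSCs. Nearly all of the sum in replicates 2 and 3 came from the other genes, Krt15, Krt17 and Tp63, whose separate values are not given here. Of the set, 2 genes were tested and 1 was called higher. Krt5 and Krt14 moved with the members high in replicate 1, and the part of basal cells in those members was not tested. Without replicate 1, 13 members were still called higher and 17 lower in rEEOs. Ilk then left the called genes and Parva entered them, at -1.93 and -2.34 on the log2 scale. The log2 fold change of Itga2 became 3.73, that of Tln2 -6.24, that of Itga7 -3.22 and that of Lama4 -6.12, all still called. The bounds of the genes without counts above the floor in rBMSCs became at least 152-fold for Itgal, 48.3-fold for Itga9 and 290-fold for Fermt1, with the scaling of all 6 libraries kept. Dag1 became -1.74 with an adjusted p of 0.000611, Tns3 became -0.67 (0.00437) and Parvb became -1.55 (0.00323), all past the p threshold but within the fold threshold.

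The wider surroundings of these genes were read from 6 gene lists holding 120 genes outside the members, of which 116 were tested, 7 were called higher and 51 lower, with a median log2 fold change of -1.45, beside the 16.3% and 13.3% of all genes called in those directions. Among 21 other basement membrane genes tested, 11 were lower and 4 higher, and the higher ones were 2 with a filter of 50 counts and 1 by limma on log2(TPM + 1). Bcam, the Lutheran receptor for the laminin alpha5 chain, had no counts in rBMSCs and was at 1074.20, 658.03 and 816.25 TPM in rEEOs, at least 7126-fold higher. The other 3 that were higher, Frem2, Col4a3 and Col4a4, stayed below 10 TPM. Sparc, a collagen-binding glycoprotein, was at 7896.63 to 7962.54 TPM in rBMSCs and 0 to 0.71 TPM in rEEOs. Fbln2, fibulin-2, was at 839.21 to 928.01 TPM and 0.04 to 0.07 TPM, and Bmper, a secreted BMP regulator, at 12.55 to 14.98 TPM and 0 to 0.02 TPM. Of genes singled out after their values were seen, Col4a1 and Col4a2, the common collagen IV chains, had log2 fold changes of -6.17 ± 0.36 and -6.12 ± 0.44 (adjusted p = 3.06e-05 and 6.53e-05).

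Of the integrin ligands of the interstitial matrix, 17 of 21 tested were lower and 1 higher, where 13.3% and 16.3% of all genes tested were. Fbn1, Col6a2, Col6a3 and Thbs2 (fibrillin-1, 2 collagen VI chains and thrombospondin-2) were each at 0.13 TPM or less in every rEEOs library and at 265.67 TPM or more in every rBMSCs library. The 1 gene higher was Spp1, osteopontin, an RGD ligand, at 367.72, 356.42 and 364.25 TPM in rBMSCs and 4066.64, 12296.60 and 12565.29 TPM in rEEOs, a log2 fold change of 5.10 ± 0.63 (adjusted p = 0.000631). It was lowest in rEEOs replicate 1, unlike most members. Fn1, fibronectin, the ligand of Itga5 and named after its values were seen, differed by -12.82 ± 1.08 on the log2 scale (adjusted p = 0.000124).

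None of the 4 hemidesmosome genes held besides Itgb4 was called at both thresholds by edgeR, DESeq2 or limma, while 2 were lower at an unadjusted p below 0.05. Without rEEOs replicate 1, 1 of them was called lower. Dst and Plec, the plakins that join it to keratin, had log2 fold changes of -1.59 ± 0.42 and -1.45 ± 0.28 (adjusted p = 0.0152 and 0.0047). Col17a1 was at 3.54, 0.15 and 0.26 TPM in rEEOs, again highest in replicate 1, and at 0.74 to 0.81 TPM in rBMSCs. Cd151, a tetraspanin of laminin-binding integrins, ranged from 0.23 to 19.17 TPM with overlap between the groups, and its expected counts were not whole, which happens where reads are shared between similar transcripts.

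Of 14 tetraspanins and other integrin partners, Tspan8 and Tspan1 were higher, from 0.31 TPM or less in rBMSCs to between 1020.01 and 2033.83 TPM and between 118.55 and 318.49 TPM in rEEOs, at least 5046-fold and 768-fold. These 2 of 14 were near the share of all genes called higher, and 4 were called without rEEOs replicate 2 or with library size as the only scaling. Sdc2, syndecan-2, was lower, at -4.99 ± 0.63 on the log2 scale (adjusted p = 0.000707). Of 17 genes of the dystroglycan complex and its glycosylation, 6 were lower, where 13.3% of all genes tested were. None was higher at both thresholds by edgeR with TMM, the filter of 10 counts and all 6 libraries, by DESeq2 or by limma. At an unadjusted p below 0.05, 2 were higher, and 2 were called higher with library size as the only scaling. In edgeR 1 was called higher with the size factors of DESeq2, with a filter of 50 counts, and without rBMSCs replicate 2, rEEOs replicate 1 or rEEOs replicate 3. Among the 6 lower genes were Sgcb, beta-sarcoglycan, and Utrn, utrophin, with log2 fold changes of -3.78 and -2.14. Of 39 other focal adhesion genes, 16 were lower, beside the same 13.3% of all genes. None was higher at both thresholds by edgeR, DESeq2 or limma, with 2 higher at an unadjusted p below 0.05. The LIM protein gene Fhl1, filamin C (Flnc), Kank4 and Hic-5 (Tgfb1i1) had the largest differences among those at 10 TPM or more, with log2 fold changes of -11.56, -8.55, -8.36 and -7.99.

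**Figure D5:**
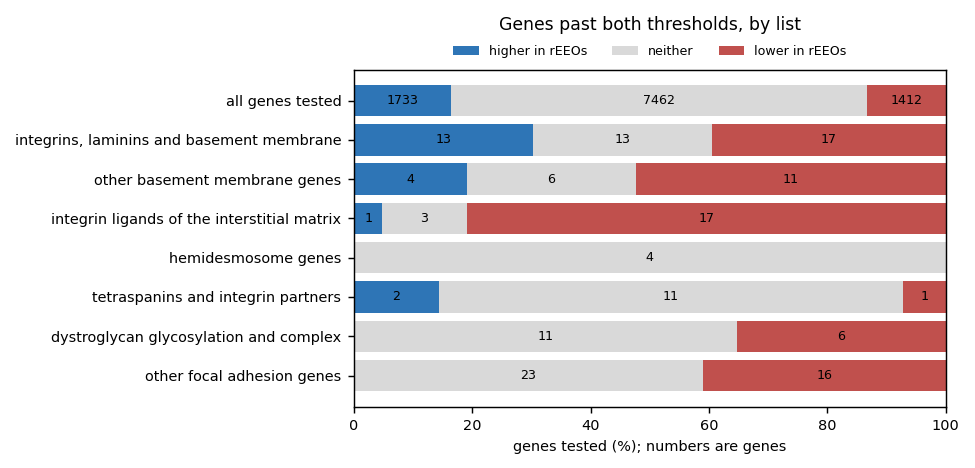
Percent of the genes tested in each list that were called higher in rEEOs (blue), lower (red) or neither (grey), with gene numbers in the bars. The members split 13 higher and 17 lower, whereas the interstitial ligands split 1 and 17. In the test plotted, no gene of the other focal adhesion list or the dystroglycan list was called higher. In some fits with another scaling, another filter or a library left out, 1 or 2 dystroglycan genes were.

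The 6 endothelial markers held summed to 9.39 TPM or more in rBMSCs and to 0.4 TPM or less in rEEOs. The 6 smooth muscle markers held, led by Acta2, summed to between 5978 and 6768 TPM in rBMSCs. In rEEOs they summed to 1.24 TPM or less. Itga7 and Lama2 were lower in rEEOs too, and the part of smooth muscle cells in those genes was not tested. The 4 platelet genes held, Itga2b among them, summed to between 0.42 and 0.87 TPM over all libraries.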

How the data were processed

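RNA of 3 rEEOs and 3 rBMSCs samples was enriched for poly(A), sequenced on a BGISEQ platform and processed by the authors with Trim Galore, Bowtie2 2.2.5 and RSEM, and the labels name the build Rnor_6.0. The deposited table gives expected counts, TPM and FPKM per gene and library, all made by the authors; RSEM shares reads between similar transcripts, so expected counts need not be whole, and those of Itga11, Itgb1, Itgb8 and Lama1 were not. FPKM was not used beyond reading the table, and the copy analysed ends within its last row, at 23 of 27 fields. The authors' columns of group averages were not used.

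Expected counts were rounded, and the 10607 genes that reached 10 counts in 3 or more libraries were tested with edgeR 4.0.16 in R 4.3.3 (TMM, glmQLFit, glmQLFTest, Benjamini-Hochberg adjustment over all genes tested, cell type as the only term). TMM factors were 0.866 to 0.885 in rBMSCs and 1.10 to 1.20 in rEEOs. Standard errors were obtained as the log2 fold change over the root of its F statistic. Where no library of a cell type exceeded 3 counts, the fold is the mean CPM of the other cell type over 3 counts (0.181 to 0.262 CPM). This bound is on the mean, so single libraries can lie below it, and it covers counting error only.

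DESeq2 1.42.0, limma 3.58.1 on log2(TPM + 0.1) and log2(TPM + 1), other scalings and filters, other thresholds, a replicate block and leaving out each library were the alternatives. Shares were compared with 2-sided exact permutation tests. Members and lists were chosen with earlier results of these data known. Values per library are given for integrins, laminins and linkers of at least 10 TPM in either cell type, for adaptors of at least 10 TPM that were called or of at least 50 TPM, for genes read in 1 cell type only and for Itgb1, Itgb4, Dag1, Ptk2 and Ilk, with up to 4 genes from each other list; other members are given by range or where a result turned on them. Some list genes are not reported here. Promoter windows came from RefSeq on GRCr8, matched by gene ID, and no coordinates of Rnor_6.0 were used.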

Additional observations from a re-analysis of the deposited data

How the results depend on the processing

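The counts of members kept within 1.5 times of 13 higher and 17 lower under every alternative run, from 10 to 14 higher and from 15 to 22 lower, and 34 of the 43 members tested kept direction and call in each of the 14 refitted settings that tested them. Over all genes, 1733 were higher and 1412 lower; limma on log2(TPM + 1) called 1121 higher, an absolute log2 fold change above 1 gave 2663 and 2287, and adjusted p alone gave 3529 and 3199. Of the other lists, 7 genes were higher, against 11 with library size only, 4 by limma on log2(TPM + 1), 13 at a log2 fold change above 1 and 14 by adjusted p alone. The difference in the Itgb1 share of beta subunits was -30.5 percentage points in TPM and -43.6 in counts, which are not corrected for transcript length. Directions turned for Itgb3bp, Nid2 and Tns3, which were near 0, and for Parvb, at 0.61 ± 0.97 over all 6 libraries. The cause was not tested. Itgb3bp went from 0.24 to -0.085 and -0.075 by limma on log2(TPM + 0.1) and log2(TPM + 1), and from -0.22 to 0.53 with single libraries left out. Nid2 was at 0.24 under library size only and from -0.30 to 0.069 with single libraries left out, and its lowest value over all alternatives was -0.41. Tns3 was at 0.032 under library size only. Parvb was at -0.63 and -0.32 by limma on log2(TPM + 0.1) and log2(TPM + 1), and from -1.55 (without rEEOs replicate 1) to 1.14 with single libraries left out. Library size only moved the median log2 fold change of all genes by 0.38, and limma on TPM by -0.29 and -0.27. The same replicate numbers did not pair the libraries (correlations of their deviations 0.13, 0.15 and -0.11); with a replicate block, 13 members were higher and 17 lower, as without it, and Parvb turned to -0.40. Genes near 3 counts per library stay undecided at this depth.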

Other observations

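The length of transcript implied by the expected count divided by TPM, scaled to the median gene of each library, was compared between cell types for 22 members with at least 50 counts and 1 TPM in every library; this comparison was added after the data had been seen. It differed little for most of them, from 0.97 to 1.00 times in rEEOs over rBMSCs for 20 members. Parva, alpha-parvin, stood apart at 0.787, 0.803 and 0.795 in rBMSCs and 1.05, 1.21 and 1.46 in rEEOs, or 1.56 times longer with no overlap. Over all 7111 genes with such counts, 45 (0.633%) differed by over 1.25 times without overlap. Lims1 was at 1.11, 1.21 and 1.12 in rBMSCs and 1.07, 1.77 and 1.70 in rEEOs, where replicate 1 lay below the rBMSCs range. For Parva the log2 fold change was -1.85 by edgeR on counts and -2.86 by limma on log2(TPM + 0.1), which also differ in test and in scaling. The table holds 1 row per gene, so the transcripts behind this were not tested.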
